A study of Mus musculus with 12 samples.

Results

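The IL-6 family of cytokines was followed through 10 mouse genes, chosen by name from the 54532 genes of an RNA-seq table. The ligands were Lif, Il6, Il11 and Clcf1, the receptor chains Lifr, Osmr, Il6st and Il11ra1, and the signal and feedback genes Stat3 and Socs3. All 10 were found, and 8 of the 10 were among the 11860 genes that reached 1 FPKM (a read abundance corrected for the length of each gene and the depth of each library) in at least 3 of 12 libraries. Il6 and Osmr lay below that level. The libraries came from a mouse melanoma cell line whose genotype includes an activated BRAF kinase in every group, and there were 3 in each of 4 groups. NTC and Gli2CA cells grew in DMEM with 10% serum and puromycin at 1 ug/mL. Cas9-NTC and Cas9-Gli2KO cells had blasticidin at 10 ug/mL as well, so Cas9 and blasticidin are common to the second pair of groups. The labels do not spell out NTC or Gli2CA, and do not say whether a group was 1 clone, what drove the introduced genes, or which part of Gli2 was targeted. They also do not say whether replicates were separate cultures, so p-values measure only the spread between these libraries.

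IL-6 family cytokines bind receptor complexes that hold the shared chain gp130, the product of Il6st. LIF signals through LIFR with gp130, IL-11 through IL-11RA with gp130, IL-6 through its own alpha receptor with gp130, oncostatin M in part through OSMR with gp130, and CLCF1 through a complex that also holds LIFR. The receptors activate JAK kinases, which phosphorylate STAT3, and STAT3 in turn activates Socs3, whose product binds gp130 and JAKs and stops the signal. In melanoma, these cytokines can come from the tumour cells themselves or from the cells around them.

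The libraries held about 15972800 to 25983200 reads, recovered from the step size of low FPKM values. The RNA of the targeted gene, Gli2, a transcription factor at the end of the Hedgehog pathway, went against the knockout label. It was listed at 0 in all 3 NTC libraries, at 0.0159 ± 0.0202 FPKM (SD, n = 3) in Gli2CA, at 0.278 ± 0.0627 in Cas9-NTC and at 1.28 ± 0.74 in the libraries labelled Cas9-Gli2KO. An RNA level does not show whether a protein was made, and directions below are those of the labelled groups. Of 8 melanocyte markers, the summed level was 275.5 to 285.7 FPKM in NTC, 221.5 to 232.5 in Gli2CA, 8.22 to 9.06 in Cas9-NTC and 6.35 to 7.80 in the libraries labelled Cas9-Gli2KO, and Dct and Tyrp1 were at 0 in all 12. Within the libraries labelled Cas9-Gli2KO, library 3 stood apart, at a root-mean-square log2 distance of 0.654 from library 1 and 0.523 from library 2, against 0.177 to 0.309 within the other groups. In bulk RNA, fewer cells that express a gene and less RNA per cell cannot be told apart.

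The sequences upstream of the IL-6 family genes were searched for 4 textbook binding motifs. RefSeq (GRCm38.p6) gave 12 windows of 250 bases before a start for 9 of the 10 genes, all but Clcf1, whose upstream sequence was not searched. The motifs, searched on both strands and not overlapping one another in these windows, were TGANTCA for AP-1, TTCNNNGAA for STAT factors, GACCACCCA for GLI factors and the classical kappa-B site for NF-kB. The 4 windows printed are those that held a match, and the other 8 windows, those of Stat3 and Il6st among them, held none. They lie at chr7:4778142-4778391 on the minus strand (the downstream one of 2 Il11 starts), chr11:4257318-4257567 on the plus strand (Lif), chr5:30012864-30013113 on the plus strand (Il6) and chr11:117969367-117969616 on the minus strand (Socs3), each from 5′ to 3′ with motif matches in capitals:
Il11: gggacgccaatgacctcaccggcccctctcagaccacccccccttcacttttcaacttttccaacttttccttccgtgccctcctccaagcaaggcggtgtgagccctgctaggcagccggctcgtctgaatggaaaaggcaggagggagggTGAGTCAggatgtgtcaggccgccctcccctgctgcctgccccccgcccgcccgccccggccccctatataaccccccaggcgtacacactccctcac
Lif: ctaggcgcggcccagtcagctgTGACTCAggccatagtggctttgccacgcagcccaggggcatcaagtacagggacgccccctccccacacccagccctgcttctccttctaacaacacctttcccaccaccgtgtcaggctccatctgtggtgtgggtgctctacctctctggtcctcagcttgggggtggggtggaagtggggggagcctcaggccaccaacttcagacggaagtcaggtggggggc
Il6: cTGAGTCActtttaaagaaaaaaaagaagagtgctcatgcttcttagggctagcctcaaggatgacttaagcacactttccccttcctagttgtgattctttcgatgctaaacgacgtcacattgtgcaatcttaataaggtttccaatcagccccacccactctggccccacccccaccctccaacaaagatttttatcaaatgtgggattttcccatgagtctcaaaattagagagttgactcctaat
Socs3: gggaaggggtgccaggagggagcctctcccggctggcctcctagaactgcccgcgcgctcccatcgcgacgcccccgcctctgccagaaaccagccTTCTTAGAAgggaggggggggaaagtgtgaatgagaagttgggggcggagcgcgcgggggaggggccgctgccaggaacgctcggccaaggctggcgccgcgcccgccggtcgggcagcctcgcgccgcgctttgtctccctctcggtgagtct
The AP-1 letters stood in 3 of the 12 windows, at 98 to 92 bases before the start in Il11, 228 to 222 in Lif and 249 to 243 in Il6, and in 6.75% of 32851 such windows genome-wide. The STAT letters stood in 1 of 12 windows, in Socs3 as TTCTTAGAA at 154 to 146 bases before the start, and in 7.02% of all windows. The exact GLI letters (0.225% of all windows) and the exact NF-kB letters (0.14%) were in none of the 12. Variants of these sites were not searched, so their absence was not shown. The Il6 window holds gggattttcc, which differs from the NF-kB letters in 1 letter. The Il11 window printed holds gaccacccc, and the Il6st window, not printed, holds ggccaccca. Each of these differs from the GLI letters in 1 letter. Such near-matches were not counted in the 12 windows or genome-wide. By GENCODE coordinates, the Lif window ends just inside the annotated gene, the Il11 and Socs3 windows lie within the spans of their genes, and the Il6 window lies outside. A match is a description of these letters and not a measured binding site.

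In Gli2CA cells, 2 IL-6 family ligands rose against NTC and 2 receptor chains fell. Il11, which encodes a cytokine known from fibrosis and bone, was 2.70-fold higher, and Clcf1, which encodes a neurotrophic cytokine, was 2.0-fold higher. Lifr, the LIF receptor chain, was 1.57-fold lower and Il6st, the shared gp130 chain, was 1.48-fold lower. Lif, Il11ra1, Stat3 and Socs3 did not pass the test. These 4 called genes of 8 compare with 14.2% of all genes tested called in this comparison, by limma on log2(FPKM + 1) at a Benjamini-Hochberg adjusted p under 0.05, with 8.45% called higher and 5.76% lower. The median log2 change was 0.11 over the 8 genes and 0.0034 over all genes.

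Il11 (chromosome 7, 4772373 to 4782859, minus strand, GRCm38) was at 18.4, 17.7 and 20.3 FPKM in the NTC libraries and at 46.4, 55.4 and 50.8 FPKM in the Gli2CA libraries. The groups did not overlap, as was so with Gli2CA above NTC for 23.3% of all genes tested. The log2 change of Il11 was 1.39 (SE 0.19, limma adjusted p = 0.000503). Clcf1 (chromosome 19, 4214238 to 4223490, plus strand) was at 38.0, 31.0 and 39.3 FPKM in NTC and at 74.8, 70.4 and 71.3 FPKM in Gli2CA, again with no overlap. Its log2 change was 0.98 (SE 0.099, limma adjusted p = 4.70e-05). Clcf1 shares 311 exon bases with AC109138.7 on the same strand, so a part of its reads could belong to that gene model. Both calls held in 14 of 14 alternative settings.

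Lif (chromosome 11, 4257557 to 4272514, plus strand), a cytokine best known for keeping mouse embryonic stem cells undifferentiated, was at 1.42, 2.41 and 1.72 FPKM in NTC and at 2.43, 2.50 and 2.19 FPKM in Gli2CA. One NTC library lay inside the Gli2CA range, and the log2 change of 0.26 (SE 0.13) had an adjusted p of 0.248 by limma. Il6 (chromosome 5, 30013114 to 30019981, plus strand), the inflammatory cytokine that names the family, was near the limit of the data. It had 16, 17 and 4 reads (0.289, 0.412 and 0.103 FPKM) in NTC and 6, 2 and 0 reads (0.155, 0.0455 and 0 FPKM) in Gli2CA. The groups overlapped, and an exact permutation test of the means gave p = 0.2, 2-sided, where 3 against 3 libraries cannot go below 0.1.

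Among the receptor chains, Il6st (chromosome 13, 112464070 to 112510086, plus strand) was at 49.1, 47.6 and 47.2 FPKM in NTC and at 35.6, 30.5 and 31.1 FPKM in Gli2CA. The groups did not overlap, the log2 change was -0.55 (SE 0.16, limma adjusted p = 0.0389), and the call ended when any 1 of the 6 libraries was left out (adjusted p 0.0595 to 0.133). The Il6st call passed in 5 of 14 alternative settings. Lifr (chromosome 15, 7090614 to 7197489, plus strand) was at 2.33, 2.79 and 2.25 FPKM in NTC and at 1.42, 1.53 and 1.75 FPKM in Gli2CA. All 3 Gli2CA libraries were below all 3 NTC libraries, and its estimate was -0.43 on the log2 scale (SE 0.099, limma adjusted p = 0.0139). The Lifr call ended without NTC library 2 (adjusted p 0.0555), Gli2CA library 1 (0.0632) or Gli2CA library 2 (0.0537), and passed in 11 of 14 alternative settings.

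Osmr (chromosome 15, 6813577 to 6874969, minus strand), the oncostatin M receptor chain, was detected at a low level, with 55, 39 and 38 reads (0.199, 0.189 and 0.195 FPKM) in NTC and 19, 24 and 24 reads (0.0982, 0.110 and 0.105 FPKM) in Gli2CA. The groups did not overlap, and the exact permutation p was 0.1, the smallest that 3 against 3 libraries allow. With the filter on low values removed, limma gave a log2 change of -0.11 with an adjusted p of 0.000429, on a scale that understates the change of a gene far below 1 FPKM. The ratio of mean FPKM was 1.87-fold lower in Gli2CA. Il11ra1 (chromosome 4, 41699989 to 41769474, plus strand), the alpha chain that binds IL-11, was at 4.62, 5.0 and 5.35 FPKM in NTC and at 4.55, 5.32 and 4.57 FPKM in Gli2CA. These ranges overlapped (log2 change -0.04, SE 0.13, limma adjusted p = 0.894). Its near-identical copies were listed at 0 in every library, and how reads were shared among the copies is not stated, so the level of Il11ra1 is uncertain.

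Stat3 (chromosome 11, 100885098 to 100939540, minus strand), the transcription factor that carries the signal, was at 20.96, 19.8 and 19.9 FPKM in NTC and at 18.6, 16.7 and 17.5 FPKM in Gli2CA. Every Gli2CA library was below every NTC library, as for 20.4% of all genes tested, and the log2 change of -0.19 (SE 0.20) did not pass the test (limma adjusted p = 0.638). Stat3 shares 72 exon bases with Stat5a on the opposite strand. Socs3 (chromosome 11, 117966079 to 117970047, minus strand), the feedback inhibitor, was at 11.8, 8.77 and 13.004 FPKM in NTC and at 14.2, 13.3 and 12.99 FPKM in Gli2CA. The highest NTC library just passed the lowest Gli2CA library (log2 change 0.27, SE 0.14, limma adjusted p = 0.288).

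**Figure D1:**
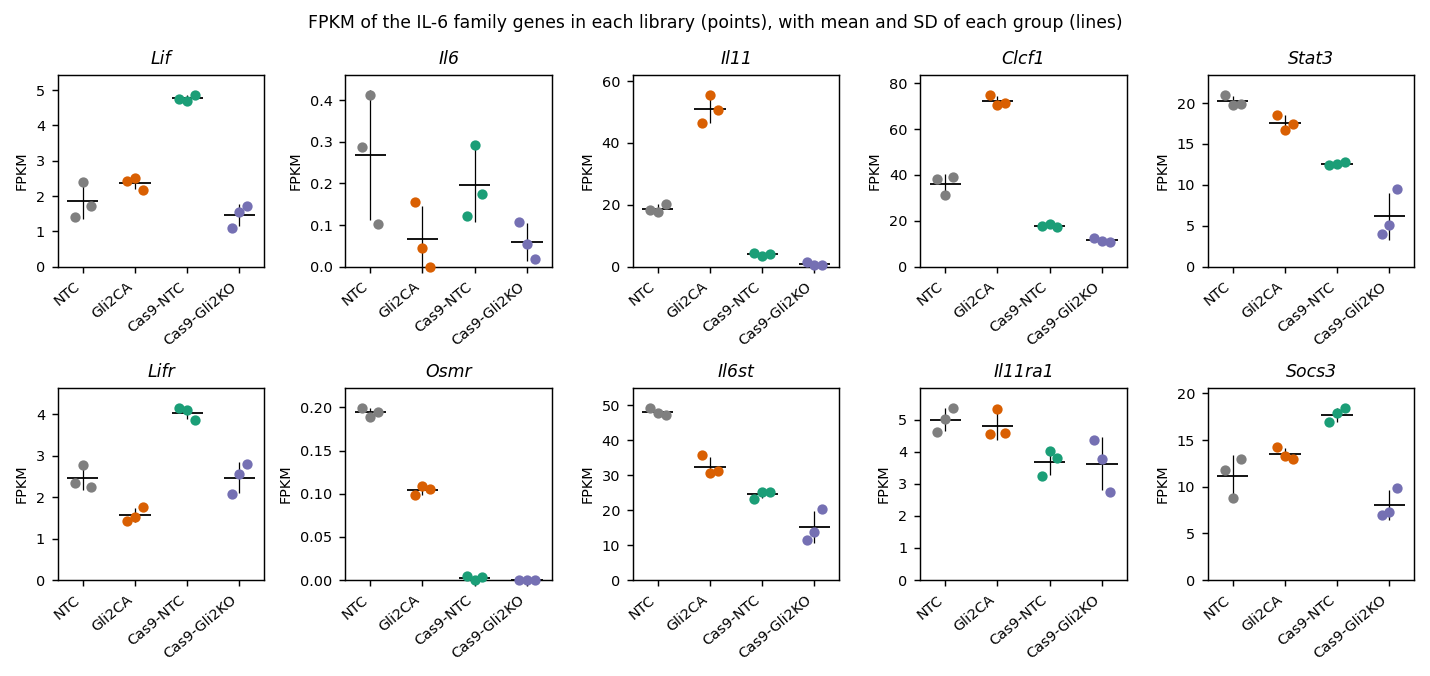
Levels of the 10 IL-6 family genes in FPKM (vertical axes, linear, each from 0) in each library (points) of the 4 groups on the horizontal axes, with the mean (horizontal bar) and SD (vertical line) of each group, n = 3. Il11 and Clcf1 were highest in Gli2CA and lowest in the libraries labelled Cas9-Gli2KO, Lif and Socs3 were highest in Cas9-NTC, and Osmr was at or near 0 in both Cas9 groups.

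In the libraries labelled Cas9-Gli2KO, 3 ligands, the receptor chain Lifr and the feedback inhibitor Socs3 fell against Cas9-NTC, and no IL-6 family gene rose. Il11 was 4.73-fold lower, Lif 3.26-fold lower, Socs3 2.21-fold lower, Lifr 1.63-fold lower and Clcf1 1.55-fold lower. Il6st, Stat3 and Il11ra1 did not pass the test. These 5 of 8 genes compare with 6.42% of all genes tested called in this comparison, 4.55% lower and 1.87% higher. Their median log2 change was -0.85, against -0.0085 over all genes, and 7 of the 8 genes (all but Il11ra1) had every library labelled Cas9-Gli2KO below every Cas9-NTC library, as did 19.4% of all genes tested.

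Il11 was at 4.46, 3.61 and 4.27 FPKM in Cas9-NTC and at 1.64, 0.523 and 0.444 FPKM in the libraries labelled Cas9-Gli2KO. The groups did not overlap, and library 1 was the highest of its group (log2 change -1.50, SE 0.25, limma adjusted p = 0.0264). Lif was at 4.76, 4.70 and 4.86 FPKM in Cas9-NTC and at 1.11, 1.56 and 1.72 FPKM in the libraries labelled Cas9-Gli2KO. Here every library labelled Cas9-Gli2KO was far below the narrow Cas9-NTC range (log2 change -1.24, SE 0.12, limma adjusted p = 0.00573). Clcf1 was at 17.7, 18.8 and 17.2 FPKM in Cas9-NTC and at 12.6, 11.3 and 10.8 FPKM in the other group, a smaller gap but also without overlap (log2 change -0.59, SE 0.094, limma adjusted p = 0.0242). Il6 was at 0.122, 0.292 and 0.174 FPKM (5, 18 and 11 reads) in Cas9-NTC and at 0.107, 0.0542 and 0.0175 FPKM (6, 3 and 1 reads) in the libraries labelled Cas9-Gli2KO. The ranges of Il6 did not overlap in FPKM, at counts too low for more than the exact permutation p of 0.1, the smallest possible.

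Lifr was at 4.15, 4.11 and 3.87 FPKM in Cas9-NTC and at 2.08, 2.56 and 2.80 FPKM in the libraries labelled Cas9-Gli2KO. The groups did not overlap (log2 change -0.54, SE 0.11, limma adjusted p = 0.0473). Socs3 was at 16.9, 17.9 and 18.4 FPKM in Cas9-NTC and at 6.96, 7.25 and 9.86 FPKM in the libraries labelled Cas9-Gli2KO, with a wide gap between the groups (log2 change -1.07, SE 0.14, limma adjusted p = 0.0141). Of these 5 calls, that of Lif held whichever of the 6 libraries was left out (adjusted p 0.000697 to 0.0468). The calls of Il11, Clcf1 and Socs3 ended without any 1 of the Cas9-NTC libraries and without library 2 of the labelled knockout group, with adjusted p up to 0.124, 0.147 and 0.0902, and that of Lifr also ended without its library 1 (up to 0.206).

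Il6st, Stat3 and Il11ra1 varied more among the libraries labelled Cas9-Gli2KO than in Cas9-NTC. Stat3 was at 12.5, 12.5 and 12.9 FPKM in Cas9-NTC and at 4.01, 5.06 and 9.45 FPKM in the libraries labelled Cas9-Gli2KO, 2.04-fold lower in the mean, with a log2 change of -1.0 (95% interval -1.67 to -0.32, limma adjusted p = 0.0926). Library 3 lay nearest to the controls. Il6st was at 23.2, 25.1 and 25.2 FPKM in Cas9-NTC and at 11.4, 13.7 and 20.2 FPKM in the other group, with the same library highest (log2 change -0.70, 95% interval -1.20 to -0.20, limma adjusted p = 0.1004). Il11ra1 was at 3.23, 4.02 and 3.79 FPKM in Cas9-NTC and at 4.35, 3.78 and 2.74 FPKM in the libraries labelled Cas9-Gli2KO, with overlapping ranges (log2 change -0.03, 95% interval -0.43 to 0.37, limma adjusted p = 0.908). Osmr had 1, 0 and 1 reads in Cas9-NTC and none in the libraries labelled Cas9-Gli2KO, where a limit of 3 reads allows up to 0.0105 to 0.0109 FPKM, so no difference was detectable at this depth.

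Gene length moved with the library in this group. Against the Cas9-NTC mean, tested genes with exons under 2 kb in all had a median log2 difference of 0.51 in library 1, 0.37 in library 2 and -0.06 in library 3, and genes of 8 kb or more had -0.35, -0.27 and 0.06. The 8 IL-6 family genes tested ran from 2081 exon bases in Il11 to 11099 in Il6st, so none was under 2 kb. Genes of 2 to 5 kb, the class of Il11 and Socs3, had medians of 0.02, 0.03 and -0.03 in libraries 1, 2 and 3. Il11 and Socs3 were lower in all 3 libraries (log2 differences of -0.95, -1.74 and -1.82 for Il11 and -1.23, -1.18 and -0.78 for Socs3). The long Stat3 (-1.44, -1.17 and -0.38), Il6st (-1.04, -0.80 and -0.27) and Lifr (-0.71, -0.50 and -0.41) were each lowest in library 1 and nearest to the controls in library 3, and so were the shorter Lif (-1.45, -1.17 and -1.08) and Socs3. The shorter Clcf1 (-0.47, -0.62 and -0.68), Il11ra1 (0.20, 0.03 and -0.32) and Il11 were instead lowest in library 3.

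With each library's length trend removed, an alternative chosen after the data were seen, Lif, Il11, Clcf1 and Socs3 remained called. Lifr was then at -0.36 (limma adjusted p = 0.0717), while Stat3 at -0.83 (adjusted p = 0.0397) and Il6st at -0.52 (adjusted p = 0.0428) passed the test. Without library 3 of the labelled knockout group, Stat3 was at -1.30 (adjusted p = 0.000658) and Il6st at -0.92 (adjusted p = 0.000936), in a fit that called 7913 genes in all.

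**Figure D2:**
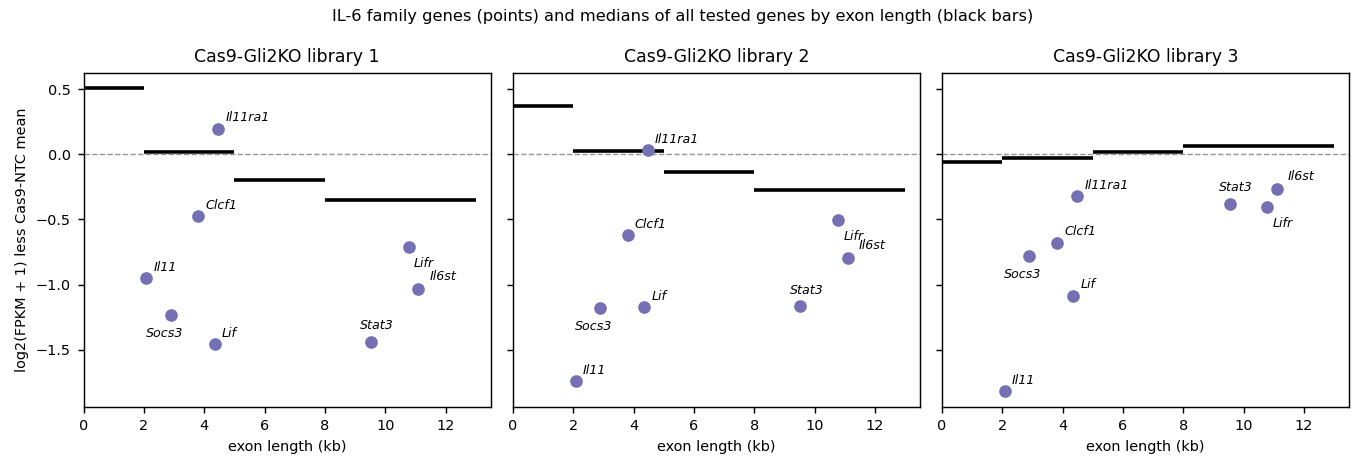
Difference of log2(FPKM + 1) from the Cas9-NTC mean (vertical axis) against exon length in kb (horizontal axis) for the 8 IL-6 family genes tested (points), in the 3 libraries labelled Cas9-Gli2KO, with medians of all tested genes in 4 length classes as black bars. The bars step down with length in libraries 1 and 2 and are nearly level in library 3. Of the 8 genes, 7, all but Il11ra1, lie below the bar of their length class in every library. The share of all tested genes that do so was not counted.

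The control lines themselves differed in every IL-6 family gene tested. Against NTC, Cas9-NTC had more Lif (2.58-fold), Lifr (1.65-fold) and Socs3 (1.58-fold), and less Il11 (4.58-fold), Clcf1 (2.02-fold), Il6st (1.96-fold), Stat3 (1.60-fold) and Il11ra1 (1.36-fold). The 8 called genes of 8, 3 higher and 5 lower, compare with 48.9% of all genes tested called here, 24% higher and 24.9% lower. None of the 8 overlapped between the groups, as Cas9-NTC lay above NTC for 34.5% and below it for 34.9% of all genes tested. Cas9, blasticidin and the history of each line cannot be told apart in this comparison.

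The ligands moved in opposite directions between the control lines. Lif rose by 1.03 on the log2 scale (limma adjusted p = 4.23e-05), while Il11 had a log2 change of -1.96 (adjusted p = 5.18e-06) and Clcf1 one of -0.97 (adjusted p = 7.14e-06). Il11 thus had its 4 group means in the order Gli2CA (50.9 ± 4.54 FPKM, SD, n = 3), NTC (18.8 ± 1.31), Cas9-NTC (4.11 ± 0.447) and labelled knockout (0.868 ± 0.667), and no neighbouring groups in this order overlapped. Clcf1 had the same order, at 72.1 ± 2.32, 36.1 ± 4.45, 17.9 ± 0.811 and 11.5 ± 0.927 FPKM, again without overlap between neighbours. Lif stood alone at 4.77 ± 0.0813 FPKM in Cas9-NTC, while Gli2CA (2.37 ± 0.167), NTC (1.85 ± 0.507) and the labelled knockout group (1.46 ± 0.319) overlapped their neighbours.

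The receptors and signal genes were also split. Lifr had a log2 change of 0.55 (limma adjusted p = 0.000744) and Socs3 one of 0.63 (adjusted p = 0.00338) from NTC to Cas9-NTC. Il6st had a log2 change of -0.94 (adjusted p = 0.000422), Stat3 one of -0.64 (adjusted p = 0.0219) and Il11ra1 one of -0.36 (adjusted p = 0.0382). The last 2 calls were the least stable, at 7 of 14 alternatives for Stat3 and 5 of 14 for Il11ra1. With 1 library left out, the adjusted p was 0.04997 to 0.0616 for Stat3 and 0.0470 to 0.140 for Il11ra1, each passing in 1 of 6 fits. Osmr had 132 reads in the 3 NTC libraries together and 2 in the 3 Cas9-NTC libraries, a ratio of read rates of 80.6 (95% exact interval 21.9 to 673, counting error only, for these libraries). No Osmr value of one group met one of the other, and the exact permutation p was 0.1, the smallest possible.

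The summed melanocyte markers, which were almost wholly Sox10 and S100b in NTC, differed in this comparison. Sox10, a transcription factor gene of the melanocyte and neural crest lineages, was at 188.5 ± 10.6 FPKM in NTC and 0.028 ± 0.0291 in Cas9-NTC, and S100b at 91.7 ± 5.59 and 5.66 ± 0.536 FPKM. Mitf, the melanocyte master regulator, went the other way, from 1.03 ± 0.103 to 2.67 ± 0.0418 FPKM, while Pmel was at 0.434 ± 0.182 and 0.199 ± 0.129 FPKM, Tyr at 0.00789 ± 0.00888 and 0, and Mlana, Dct and Tyrp1 at 0 in both groups. Leukocyte marker sums were 1.69 to 2.66 FPKM in NTC, 7.17 to 8.81 in Gli2CA, 9.52 to 9.73 in Cas9-NTC and 1.71 to 2.30 in the libraries labelled Cas9-Gli2KO. Most of each sum was Cd68, and 4 of the 10 markers were at 0 in each group. The summed fibroblast markers were 6.01 to 7.56, 6.11 to 6.87, 9.94 to 10.49 and 6.89 to 16.4 FPKM, in the same order of groups. Within them, mean Col1a1 went from 4.75 FPKM in NTC to 0.383 in Cas9-NTC, and Pdgfrb from 0.0518 to 7.42. Endothelial marker sums were 4.49 to 5.40, 20.4 to 23.1, 10.2 to 11.4 and 8.34 to 24.6 FPKM in that order. Most of each sum was Flt1 in NTC (mean 4.94 FPKM), Gli2CA (21.4) and Cas9-NTC. In the labelled knockout, Cdh5 averaged 11.4 FPKM and Flt1 3.39. Pecam1, Kdr, Tek, Vwf and Emcn had group means of at most 0.0783 FPKM. Keratinocyte marker sums were between 1.26 and 3.57 FPKM in all libraries. The part of these markers in the results was not tested.

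When the change from NTC to Gli2CA was set against the change from Cas9-NTC to the labelled knockout in 1 interaction contrast, the ligands and Socs3 differed and the receptor chains did not pass the test. The difference of the log2 changes was 2.89 for Il11 (SE 0.27, limma adjusted p = 2.46e-05), 1.58 for Clcf1 (SE 0.14, adjusted p = 1.60e-05), 1.49 for Lif (SE 0.18, adjusted p = 0.000157) and 1.33 for Socs3 (SE 0.20, adjusted p = 0.000739). These 4 of 8 genes compare with 28.3% of all genes tested called in this contrast, 16.7% with a positive and 11.6% with a negative difference. The contrast used a spread shared by all groups, and in simulated data it gave the most false calls of the comparisons. Il11 and Clcf1 had called changes of opposite sign in the separate comparisons, while for Lif and Socs3 the change in Gli2CA had not passed its test.

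For the receptor chains the intervals were Lifr -0.20 to 0.42, Il6st -0.35 to 0.64 and Il11ra1 -0.41 to 0.39 around differences of 0.11, 0.15 and -0.01. Lifr and Il6st were lower in both perturbed groups than in their own controls in every library, and both calls passed for Lifr but only that in Gli2CA for Il6st. Stat3 had a difference of 0.80 (SE 0.29, limma adjusted p = 0.0592), which passed without library 3 of the labelled knockout group (1.11, adjusted p = 1.04e-05), as did Il6st (0.36, adjusted p = 0.0170). The calls of Il11, Lif, Clcf1 and Socs3 held in 19 of 19 alternatives.

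**Figure D3:**
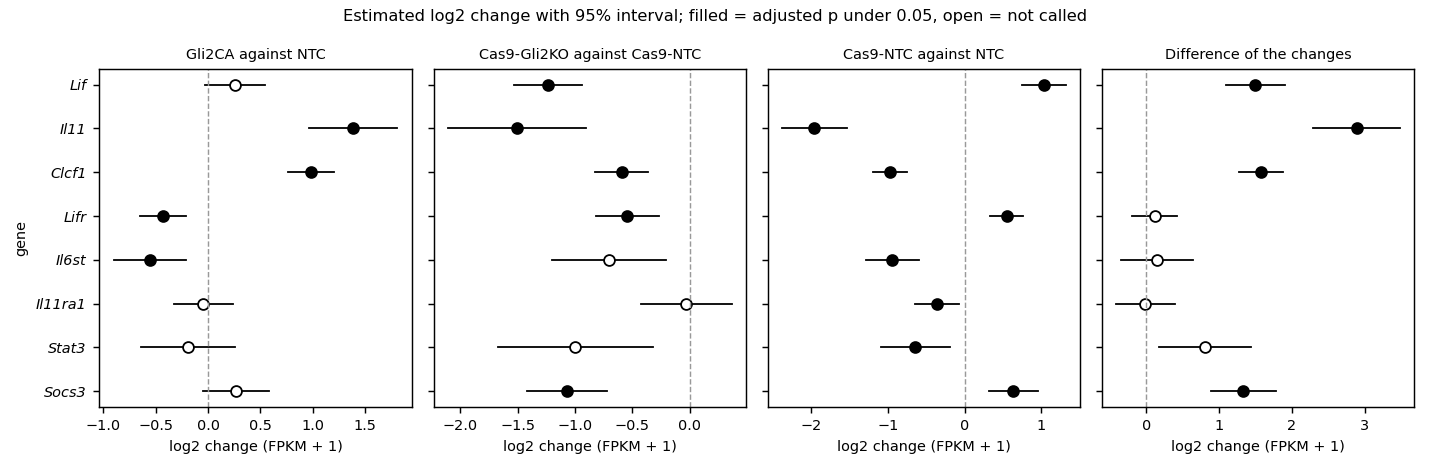
Estimated change of log2(FPKM + 1) (horizontal axes) with its 95% interval (lines) for the 8 IL-6 family genes tested (rows), in the 3 pairwise comparisons and in the difference between the Gli2CA change and the labelled knockout change, with filled points at an adjusted p under 0.05. Il11 and Clcf1 lie on opposite sides of 0 in the first and second panels, and the intervals of Lifr and Il6st lie below 0 in both, where the Il6st point is open in the second.

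Of the further ligands and receptors of the family, Il6ra is described here. Il6ra, the IL-6 alpha receptor, was at 2.41 ± 0.329 FPKM in NTC and 6.76 ± 0.633 FPKM in Cas9-NTC, a called rise (log2 change 1.18, adjusted p = 0.000535), and at 4.35, 4.98 and 9.66 FPKM in the libraries labelled Cas9-Gli2KO, where library 3 was again apart.

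The 12 other JAK-STAT transducers were all tested. In Gli2CA, where 14.2% of all genes tested were called, Jak2, a kinase bound to gp130, fell (log2 change -0.49, limma adjusted p = 0.0280), the adaptor Grb2 rose (0.32, adjusted p = 0.0459), and 10 were not called (median log2 change -0.02). In the libraries labelled Cas9-Gli2KO, where 6.42% of all genes tested were called, Jak3 rose (0.44, limma adjusted p = 0.0449) and 10 were not called (median -0.33). Jak3 shares 404 exon bases with Insl3 on the same strand, so the source of some of its reads is uncertain. Between the control lines, where 48.9% of all genes tested were called, 3 rose and 4 fell, with Jak2 (-1.31) and Stat5a (-1.08) lower and Stat2 (0.97) higher in Cas9-NTC.

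Of the inhibitors and the proteases that shed receptors, 12 were tested from a list of 13. Of these, 2 fell in Gli2CA, the phosphatase gene Ptpn2 (log2 change -0.56, limma adjusted p = 0.0408) and Socs2 (-0.45, adjusted p = 0.00126), and none rose, against 5.76% of all genes tested called lower and 8.45% higher. None of the 12 was called in the libraries labelled Cas9-Gli2KO (median -0.27). In Cas9-NTC, 2 rose and 5 fell against NTC, where 24% and 24.9% of all genes tested did, with Socs5 (-1.43), the protease gene Adam10 (-1.42) and Socs1 (-1.05) the largest.

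Of 32 genes known as STAT3 targets, 26 were tested. In Gli2CA, 7 rose, 5 fell and 14 were not called, with a median log2 change of 0.10, while 8.45% of all genes tested rose and 5.76% fell. Ier3, an early-response gene, rose (0.77, limma adjusted p = 0.000162), while Cebpd, a transcription factor gene (-0.77, adjusted p = 7.55e-05), and Birc5, which encodes survivin and follows cell division (-0.74, adjusted p = 0.00735), fell. In the libraries labelled Cas9-Gli2KO, none rose, 9 fell and 17 were not called, with a median of -0.47, while 1.87% of all genes tested rose and 4.55% fell. The largest were Klf4, a transcription factor gene (-1.14, adjusted p = 0.0365), Il4ra, the IL-4 receptor chain (-1.12, adjusted p = 0.0112), and Ier3 (-1.04, adjusted p = 0.00699). Between the control lines, 7 rose and 11 fell, where 24% of all genes tested rose and 24.9% fell, and Klf4 (-3.19), Cebpd (-2.83) and Fos (-2.35) were lower in Cas9-NTC. Many of these targets also answer to other pathways, so the counts are not a measure of STAT3 activity.

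**Figure D4:**
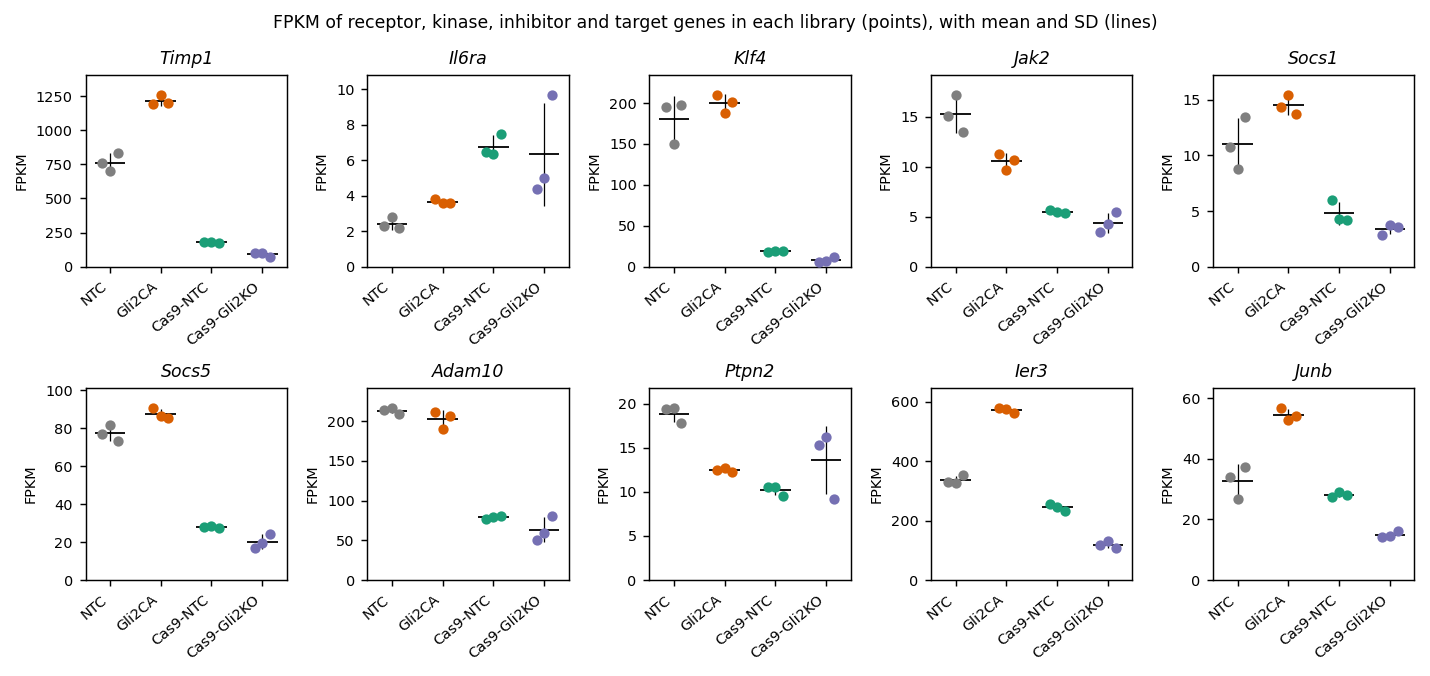
Levels in FPKM (vertical axes, linear, from 0) of 10 named receptor, kinase, inhibitor and target genes in each library (points) of the 4 groups (horizontal axes), with mean and SD (lines), n = 3. Ier3, Junb and Timp1 were highest in Gli2CA and lowest in the libraries labelled Cas9-Gli2KO.

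Lifr and Osmr lie near each other on chromosome 15, and the 16 other protein-coding genes tested within 2 Mb of them gave the local background. In Cas9-NTC against NTC, 11 of the 16 rose and 3 fell (median log2 change 0.48), beside the rise of Lifr itself and against 24% of all genes tested higher and 24.9% lower. The largest changes were Egflam (-4.99, limma adjusted p = 2.89e-12) and Nadk2 (3.40, adjusted p = 2.47e-10). In the libraries labelled Cas9-Gli2KO, 4 of the 16 fell and none rose (median -0.32), against 4.55% of all genes tested lower and 1.87% higher. Among the 4 were Gdnf, which encodes a neurotrophic factor (-1.17, adjusted p = 0.00274), and Fyb (-1.23, adjusted p = 0.00139). In Gli2CA, 2 rose and 2 fell (median -0.04), against 8.45% and 5.76% of all genes tested.

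The genes with the most similar profiles were found by the root-mean-square distance of centred log2(FPKM + 1) values over the 12 libraries, for the 6 IL-6 family genes whose group means spanned at least 1 on that scale. Among the nearest to Il11 were Ccl9 (distance 0.320) and Pkp1 (0.363). Nearest to Clcf1 were Phlda1 (0.10), Egr2 (0.124) and Areg (0.127), the last of which encodes the growth factor amphiregulin and stood at 110.5, 218.8, 61.4 and 37.2 FPKM in the means of NTC, Gli2CA, Cas9-NTC and the labelled knockout. Nearest to Lif were Ccn3 (0.143), Fblim1 (0.173) and Gbp7 (0.187). Nearest to Socs3 were Wbp2 (0.126), Cebpb (0.140) and Hdac6 (0.146). Il6st was closest to Utrn (0.106), Dagla (0.115) and Pcdhac2 (0.118), and Stat3 to Lclat1 (0.102), Actn4 (0.120) and Rab10 (0.122). These likenesses are a description over 4 groups of 3 libraries.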

How the data were processed

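RNA of 12 mouse melanoma cell line libraries was sequenced, 3 in each of 4 groups. Per the labels, RNA was column-purified, selected for poly(A) and made into libraries (NEBNext Ultra II). The authors deposited FPKM values, in 1 table of 54532 Ensembl genes. Not given in the sources used here were the aligner, counter, genome build and use of strand, so genes that overlap others or have near-identical copies are uncertain.

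Symbols, exon lengths and coordinates came from GENCODE M21 (GRCm38), which held 54495 of the IDs. With M21 lengths, 97.8 to 98.4% of values of up to 20 reads were whole reads within 0.02, which gave a depth of 15972800 to 25983200 reads. Detection limits are 3 reads and cover counting error only, as do the 95% intervals of read rates.

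The test was limma 3.58.1 (R 4.3.3) with a trended prior on log2(FPKM + 1), which understates changes of low genes, for 11860 genes that reached 1 FPKM in 3 or more libraries. Calls had a 2-sided Benjamini-Hochberg adjusted p under 0.05 over all genes tested. All groups shared 1 fit (8 residual degrees of freedom), except the labelled knockout against Cas9-NTC, fitted on its own 6 libraries (4 degrees), with the shared fit as an alternative. The reason was an earlier simulation on these data, in which the shared spread gave too many false calls in that comparison. The difference of changes needs all groups and kept the shared spread, so its p-values carry this limit. Fold values in words are ratios of mean FPKM. Il6 and Osmr, below the filter, had exact permutation tests. The steps were tested on simulated data, in which each value was drawn on its own with the spread of its gene in its group. No shift common to a whole library was put in. The counts that follow therefore do not cover the length trend or the labelled knockout library that stood apart. Among 40 genes given a log2 change of -1, 33 were called in Gli2CA against NTC and 26 in the labelled knockout comparison. Between the control lines 37 were called, and in the difference of changes 30. At a change of 1, the numbers were 35, 22, 32 and 24 in that order. False calls among 11660 unchanged genes were 18, 37, 14 and 69. Calls in the labelled knockout comparison and the difference of changes are thus the least certain. Tables and plots used matplotlib 3.10.9, scipy 1.17.1, numpy 2.4.6 and pandas 2.3.3 in Python 3.11.15.

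Named were all 10 genes, up to 3 called genes with the largest change per pathway list and comparison, the 3 nearest profiles per gene spanning at least 1 on the log2 scale, and genes within 2 Mb of Lifr and Osmr. Some results that the rule covers are not reported here. The genes and lists were chosen with earlier results of these data known. Alternatives were other pseudocounts (0.1 and 5), no filter, rescaling to equal totals, quantile normalization, other fits, a replicate block and leaving out each library.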

Additional observations from a re-analysis of the deposited data

Results flagged for a closer look

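For 12 named genes the change from NTC to Gli2CA differed from the change from Cas9-NTC to the labelled knockout, by the interaction contrast of limma. This contrast called 28.3% of all genes tested, 16.7% with a positive and 11.6% with a negative difference. Outside the IL-6 family, the genes named were picked by this same contrast, as those with the largest called differences of their lists. In the IL-6 family itself, the differences of the log2 changes were 2.89 for Il11, 1.58 for Clcf1, 1.49 for Lif and 1.33 for Socs3. Of 26 STAT3 targets tested, 12 had a called positive difference and 2 a called negative one. The largest were 1.80 for Ier3 (adjusted p = 3.43e-06), 1.66 for Timp1 (adjusted p = 0.000136) and 1.61 for Junb (adjusted p = 3.26e-05). Ier3 averaged 335.4 FPKM in NTC, 571.0 in Gli2CA, 244.2 in Cas9-NTC and 118.7 in the labelled knockout. Timp1, which encodes a metalloprotease inhibitor, averaged 763.1, 1215, 179.5 and 91.3 FPKM in that order, and Junb, an AP-1 subunit, 32.8, 54.6, 28.2 and 14.97 FPKM.

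Of 12 JAK-STAT transducers tested, 4 had a called positive difference and none a called negative one. The difference was 1.04 for Stat6 (adjusted p = 0.00418) and 0.51 for Tyk2 (adjusted p = 0.0283). Of 12 inhibitors and proteases tested, 4 had a called positive and 2 a called negative difference. It was 0.80 for Pias4 (adjusted p = 0.0179), 0.78 for Socs1 (adjusted p = 0.0230) and -0.91 for Ptpn2 (adjusted p = 0.0137). These p-values come from limma on the same 12 libraries, with the spread shared by all groups.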

How the results depend on the processing

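Over 488 pairings of an IL-6 family gene in a comparison with an alternative setting, 425 kept direction and side of the threshold, 54 lost the call, 9 gained it and 0 reversed; the cause was not tested. In Gli2CA against NTC, 1685 genes were called (1002 higher, 683 lower), 2916 in a fit of these groups alone, and 1132 to 1346 with 1 library left out, when 2 to 3 IL-6 family genes were called in place of 4. Rescaling to equal totals moved the median of all genes to -0.13 and the split to 613 higher and 1195 lower. In the labelled knockout comparison, 762 genes were called (222 higher, 540 lower), 3182 in 1 fit over all groups (1323 higher, 1859 lower), and 120 to 7913 with 1 library left out, the highest without library 3 of the labelled knockout group. There, IL-6 family calls numbered 5, then 3 with no filter and 1 to 7 with 1 library left out. Cas9-NTC against NTC gave 5798 genes, and 5058 to 5281 with 1 library left out. The difference of changes gave 3356 genes (1976 positive, 1380 negative), 1317 and 1519 after rescaling, and 2373 to 7535 with 1 library left out, when 4 to 6 IL-6 family genes were called.

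Same-numbered libraries did not pair: 4 of 18 pairs correlated above 0.1 (range -0.372 to 0.248), against 7 of 36 different-numbered pairs, and 3 of 12 libraries correlated best with their own number. With the number as a replicate block, the labelled knockout comparison called 176 genes (50 higher, 126 lower), of which 1 was an IL-6 family gene, Lif (adjusted p = 0.0448).

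Depth limits Il6 and Osmr, which had 0 to 18 and 0 to 55 reads per library.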
